A study of Mus musculus with 12 samples.

Results

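Interferon-stimulated genes are the transcripts that type I or type II interferon switches on in most cells, macrophages included. A set of 45 such genes, given by name, was followed in the bulk RNA sequencing of mouse peritoneal macrophages, out of 34948 named rows in the table of raw counts. Of the 45 names, 44 had a row, and all 44 passed the filter on low counts, so that all rows found were among the 16546 genes tested. The remaining name, Ddx58, had no row under that symbol. The table has a row Rigi, the current symbol of the same RNA sensor, which is given beside the set and not counted in it. By role the 44 genes are 3 transcription factors, 9 GTPases, 4 sensors of RNA or other nucleic acids, 5 genes of the OAS family, 4 of the IFIT family, 6 of the ISG15 and PARP9-DTX3L systems and 13 other effectors.

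The series measured poly(A) RNA in 12 libraries, 3 in each of 4 groups, and its title asks how IRE1α, the endoplasmic reticulum stress sensor encoded by Ern1, bears on the uptake of antibody-coated platelets. All cells came from 8-week-old male mice and were harvested 3 days after an injection of 3% Brewer thioglycolate into the peritoneum, which draws monocytes there and was given to every group. R300 KO cells were labelled Mac-Ern1KO and were cultured for 2 h with platelets that R300 had coated, R300 being an antibody to CD42 on platelets. R300 WT cells were labelled Ern1fl/fl, the floxed line without the deletion, and had the same platelets. Blank KO cells were labelled Mac-Ern1KO and blank WT cells Ern1fl/fl, both with the treatment Con. The labels do not say whether Con cells had platelets without antibody or none, do not name the Cre driver, and describe the 3 libraries of a group as biological replicates without saying whether animals were pooled.

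As background, type I interferons act through the receptor made by Ifnar1 and Ifnar2 and through the Janus kinases JAK1 and TYK2. These activate STAT2, which binds IRF9 and attaches in a complex with it to interferon-stimulated response elements (ISRE) in promoters. Interferon gamma acts through its own receptor and on gamma-activated sites (GAS). IRF7, itself an interferon-stimulated gene, then drives more type I interferon, so that the response feeds itself, and resting macrophages are known for a low tonic level of it.

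The libraries differed in ways the groups do not explain. Xist, the RNA by which XX cells shut down one of their X chromosomes, stood at 143 to 590 CPM in 8 libraries, against the male sex on the labels (CPM are counts scaled to the library total with TMM factors). The KO libraries among these had 553 and 575 CPM (R300 KO 1 and 2) and 590 and 464 CPM (blank KO 1 and 2). The WT libraries had 143 and 169 CPM (R300 WT 1 and 3) and 148 and 431 CPM (blank WT 1 and 2). Xist was at most 0.0742 CPM in the other 4, which fall 1 to each group: R300 KO 3, R300 WT 2, blank KO 3 and blank WT 3. Libraries R300 KO 1 and R300 KO 2 were near copies of each other, with a median chi-square per gene of 1.53, and so were R300 WT 1 and R300 WT 3 with 1.38, against 6.14 to 10.1 for the other pairs within a group. Total counts ran from 21765600 to 44273700. Ern1 itself ran from 174 to 235 CPM in R300 KO and 138 to 205 CPM in R300 WT libraries, and from 116 to 155 CPM in blank KO and 94.1 to 117 CPM in blank WT libraries. It was thus not lower in KO cells (log2 fold change 0.21 ± 0.18 (SE) in R300 cells and 0.38 ± 0.18 in blank cells), and a count over the whole gene does not check the deletion. The cells carried macrophage markers at high levels, such as Adgre1 at 566 to 706 CPM, and Lyz2, the lysozyme gene into which a common myeloid Cre driver is inserted, averaged 7090 ± 186 CPM in R300 KO cells, against 12500 ± 298 CPM in R300 WT cells (SD, n = 3 each).

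The promoter letters through which these genes are known to answer interferon are shown for 7 of them, chosen because their values carry the comparisons or because a window holds several elements. RefSeq windows on GRCm38.p6, from 250 bases before to 50 bases from the start site on, were matched for 35 of the 44 genes. The ISRE core, searched on both strands as GAAA, any 2 bases and GAAA again, was found in 20 of these 35 genes (57.1%), against 1079 of all 27025 genes with a window (3.99%). The GAS core, searched as TTCNNNGAA, which reads the same on both strands, was found in 9 (25.7%), against 2582 of all genes (9.55%), and 6 genes held both. In 8 genes a single window held 2 or more ISRE cores, counting overlapping ones. In the stretches printed here, read 5′ to 3′ on the strand of the gene, capitals mark ISRE cores and lower case the bases around them.
Stat2, chr10:128270261-128270300, plus strand: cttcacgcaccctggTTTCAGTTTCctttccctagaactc
Gbp2, chr3:142620589-142620628, plus strand: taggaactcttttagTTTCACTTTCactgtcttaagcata
Ifit3, chr19:34583358-34583431, plus strand: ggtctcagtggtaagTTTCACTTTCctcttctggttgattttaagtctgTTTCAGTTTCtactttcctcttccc
Ifit3b, chr19:34607754-34607827, plus strand: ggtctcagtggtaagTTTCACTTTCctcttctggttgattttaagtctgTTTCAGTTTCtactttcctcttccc
Isg15, chr4:156200860-156200911, minus strand: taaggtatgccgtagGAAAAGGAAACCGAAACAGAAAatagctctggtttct
Bst2, chr8:71537572-71537617, minus strand: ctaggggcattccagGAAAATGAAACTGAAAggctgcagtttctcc
Slfn8, chr11:83020834-83020873, minus strand: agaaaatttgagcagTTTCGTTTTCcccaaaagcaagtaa
The Isg15 stretch holds 3 overlapping cores, the first starting 78 bases before the start site, and that of Bst2 holds 2, from 130 bases before it. The stretches of Ifit3 and Ifit3b, neighbouring genes on chromosome 19, are identical. In 18 genes a core lay before the start site, between 14 and 222 bases from it. The windows of Irf7 and Irf9 held neither letter string, which says only that these letters are absent from these windows.

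KO cells had lower fitted levels of the whole set than WT cells. In R300 cells the fitted KO value was below the WT value for 44 of 44 genes, against 51.4% of all genes tested, with a median log2 fold change of -0.92 (0.529-fold), against -0.01 over all genes. In blank cells it was also below for 44 of 44 genes, against 49.3% of all genes, with a median of -0.64 (0.642-fold), against 0.00. No single gene of the set was called at a Benjamini-Hochberg adjusted p under 0.05 by the quasi-likelihood test of edgeR, and neither was any of the 16546 genes (0% called) in either comparison. At an unadjusted p under 0.05, 25 genes of the set (56.8%) were lower in R300 KO than in R300 WT cells, against 1.3% of all genes, and 8 (18.2%) were lower in blank KO than in blank WT cells, against 0.695%. DESeq2 called none of the set lower in either comparison, where it called 0.0725% and 0.0181% of all genes lower in R300 and in blank cells. Genes of the set move together from library to library, so these counts are not 44 independent results. The set was also chosen with earlier results of these data known, so its shares are no independent check of a difference.

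**Figure D1:**
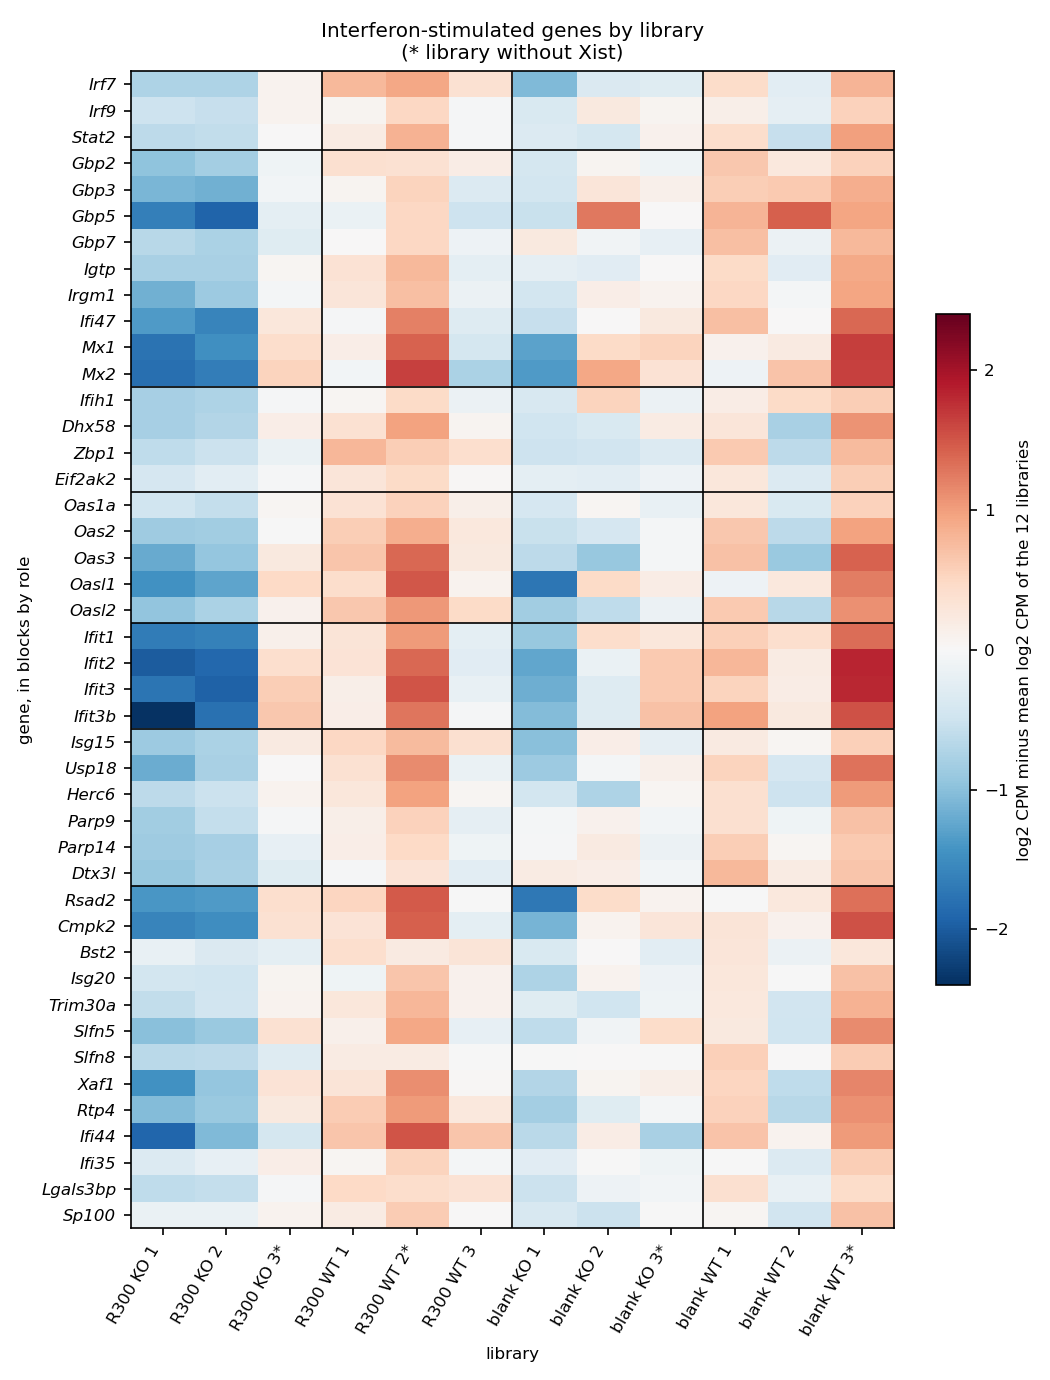
Level of each of the 44 genes in each of the 12 libraries, as log2 CPM minus the gene's mean over the libraries (colour), with genes in blocks by role, libraries by group and libraries without Xist starred. R300 KO 1 and R300 KO 2 are the bluest (lowest) columns, with medians of -0.89 and -0.78, and blank WT 3 and R300 WT 2 the reddest (highest), with medians of 0.95 and 0.82.

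Libraries of the same group also spread, with a median SD of log2 CPM within a group of 0.46 over the 44 genes. The median genotype differences were -0.92 in R300 and -0.64 in blank cells. Median deviations of the 44 genes from their own means were -0.89, -0.78 and 0.08 (log2) in the R300 KO libraries, against 0.29, 0.82 and -0.02 in the R300 WT libraries. In the blank KO libraries they were -0.53, 0.01 and -0.01, against 0.45, -0.12 and 0.95 in the blank WT libraries. The library without Xist stood above both others of its group for 43 genes in R300 KO, 40 in R300 WT, 23 in blank KO and 40 in blank WT, against 41.5%, 43.4%, 31.6% and 31.7% of all genes. Blank WT 3 held the highest level of 31 genes, R300 KO 1 the lowest of 27. The genotypes were also set side by side among the libraries without Xist and among those with it. The first leaves 1 library of each genotype in each treatment, and among the R300 libraries with Xist the near copies remain. Libraries with Xist are not matched for its level. It was 553 and 575 CPM in R300 KO libraries, against 143 and 169 CPM in R300 WT libraries. Between the libraries without Xist, KO was lower than WT for 44 of 44 genes in R300 cells (median log2 ratio of CPM -0.75), against 50.3% of all genes, and for 44 of 44 in blank cells (median -0.92), against 49.5%. Among the libraries with Xist, every R300 KO library was below every R300 WT library for 44 of 44 genes (median -1.10), against 24.1% of all genes, and every blank KO library was below every blank WT library for 8 (median -0.39), against 8.7%.

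The blank libraries with Xist did not behave alike. Xist stood at 590 CPM in blank KO 1 and 148 CPM in blank WT 1, against 464 CPM in blank KO 2 and 431 CPM in blank WT 2. Same-numbered blank libraries deviated together, and on that ground, found in these same data, they were read as pairs. KO was lower than WT for 44 of 44 genes in pair 1 (median -1.06) and for 44 of 44 in pair 3 (median -0.92), the same libraries without Xist as above, but for 15 of 44 in pair 2 (median 0.08), against 50.6%, 49.5% and 50.1% of all genes. In all 3 pairs KO was lower for 15 genes (34.1%), against 12.7% of all genes. A fit of the 6 blank libraries took the pairs as a block, a choice made after seeing the data. There edgeR called none of the set, and 21 genes (47.7%) were lower in blank KO cells at an unadjusted p under 0.05, against 2.16% of all genes. Pair 2 also held the highest Gbp5 of the series, 41.2 CPM in blank KO 2 and 46.4 CPM in blank WT 2, and Irf1, an interferon-induced transcription factor outside the set, at 126 CPM in blank KO 2 and 119 CPM in blank WT 2. Summed markers of 4 other cell types were highest in the same pair. Those of B cells stood at 281 CPM in blank KO 2 and 307 CPM in blank WT 2, against 86.8 to 147 CPM in the other 10 libraries. Those of T and NK cells, which make interferon gamma, stood at 7 and 9.43 CPM in these libraries, against 1.77 to 6.06 CPM in the others. Those of neutrophils were at 229 and 230 CPM, against 131 to 184 CPM, and those of plasmacytoid dendritic cells at 58.7 and 64.1 CPM, against 36.3 to 49.8 CPM. Tcf4 alone held 48.7 and 51.9 CPM of the last sums. Tcf4, Ccr9, Ly6d and Pacsin1 were highest in this pair, but Siglech, Cox6a2 and Klk1 were not. Siglech stood at 0.416 CPM in blank KO 2 and 0.625 CPM in blank WT 2, against 0.757 CPM in R300 WT 3. Csf3r held 141 and 146 CPM of the neutrophil sums, but was also at 143 CPM in blank KO 1. Mmp8 of neutrophils, Cd22 of B cells, and Eomes and Gzmb of T and NK cells were not highest in this pair. Every other marker of the neutrophil, B cell, and T and NK cell lists was highest in blank KO 2 or blank WT 2. The part of these cell types in the values of pair 2 was not tested.

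**Figure D2:**
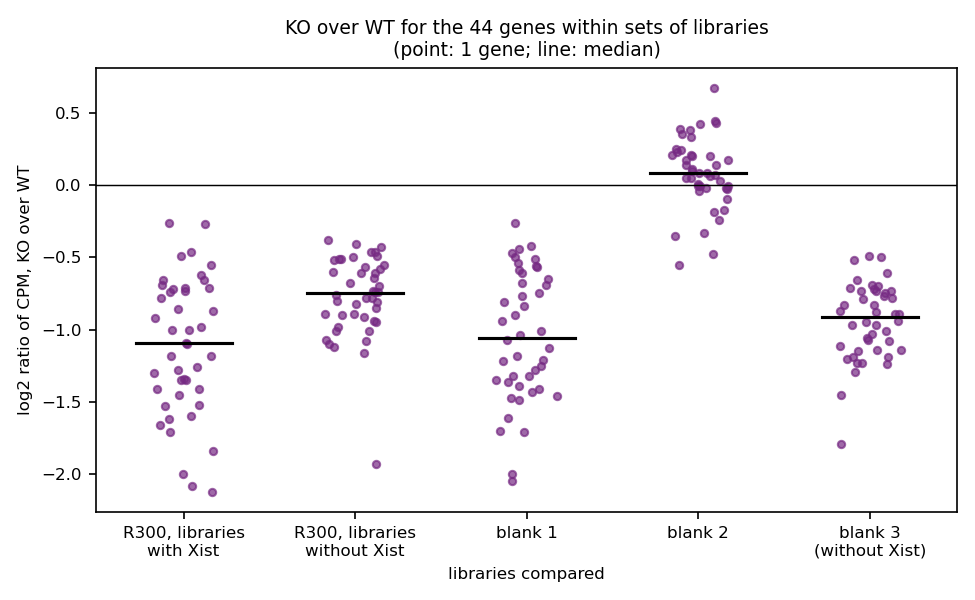
Log2 ratio of CPM, KO over WT, of the 44 genes (points) with their median (line) within R300 libraries with Xist, R300 libraries without Xist and each same-numbered blank pair. Points of all sets but blank pair 2 lie below 0, and those of blank pair 2 straddle it.

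Among the transcription factors, Irf7 separated the genotypes in both treatments. Irf7 had 42.6, 43.0 and 75.5 CPM in R300 KO libraries, against 123, 136 and 92.8 CPM in R300 WT libraries. In blank KO libraries it had 34.5, 56.3 and 58.6 CPM, against 96.8, 60.3 and 127 CPM in blank WT libraries. Every KO library was below every WT library of its treatment, with the narrowest gap between blank KO 3 and blank WT 2. The log2 fold change of Irf7, KO over WT, was -1.13 ± 0.32 (SE) in R300 cells and -0.92 ± 0.31 in blank cells (edgeR, adjusted p = 1.000 for each). Stat2, a subunit of the ISRE-binding complex, had 48.5, 49.6 and 75.5 CPM in R300 KO libraries, against 85.2, 133 and 72.9 CPM in R300 WT libraries. It had 59.4, 55.9 and 80.0 CPM in blank KO libraries, against 100, 50.6 and 148 CPM in blank WT libraries. The groups overlapped in both treatments, through KO 3 and WT 3 in R300 cells and through WT 2 in blank cells. Irf9, the DNA-binding subunit of that complex, had the smallest fold changes of the 3 factors. It had 36.6, 35.2 and 54.9 CPM in R300 KO libraries, against 54.2, 72.9 and 50.5 CPM in R300 WT libraries. Irf9 had 40.1, 60.6 and 54.2 CPM in blank KO libraries, against 56.5, 44.6 and 75.9 CPM in blank WT libraries. Its groups overlapped in both treatments, and its log2 fold change in blank cells was -0.19 ± 0.24 (SE).

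**Figure D3:**
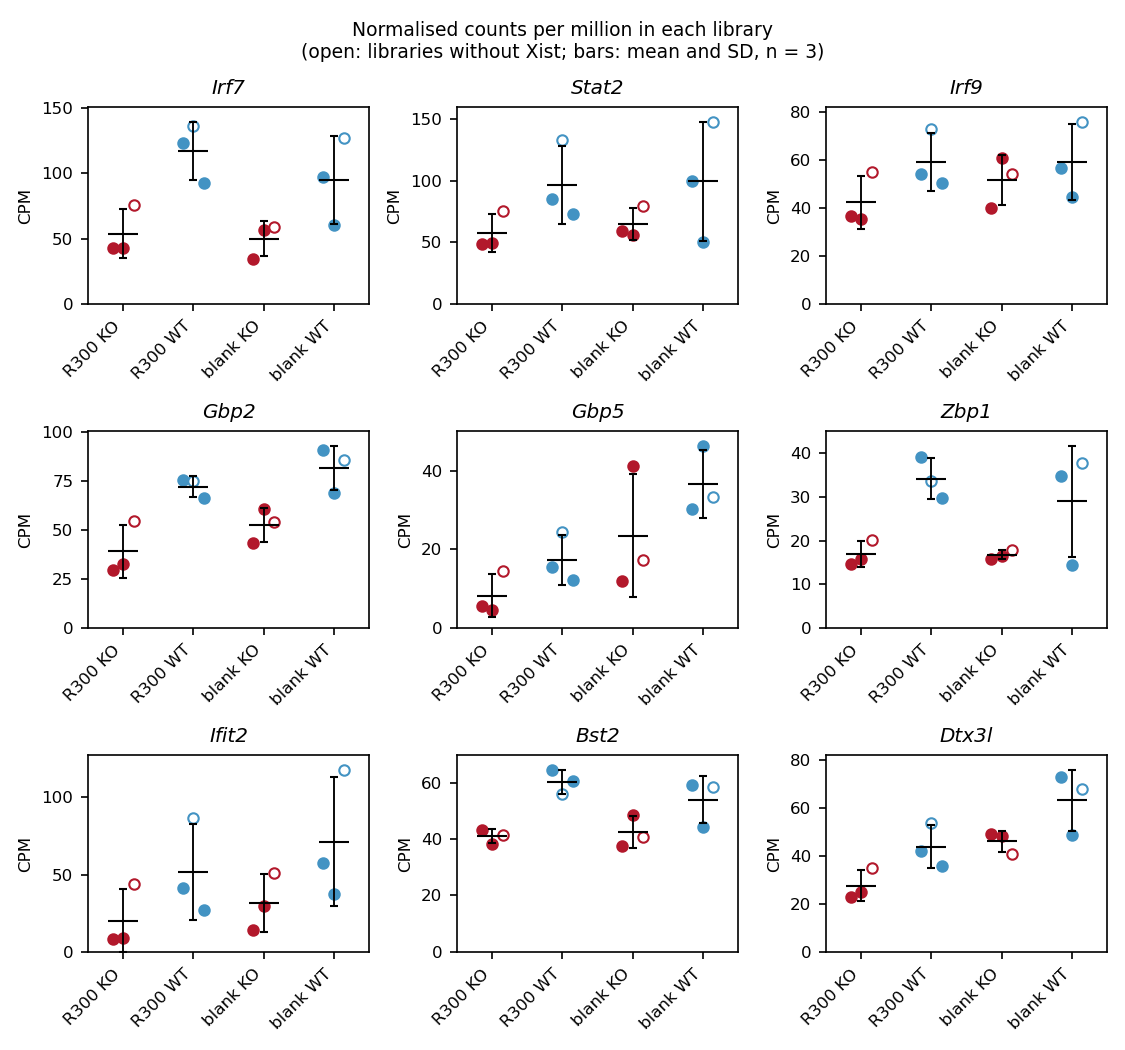
TMM-normalised CPM of 9 genes in each library (points, open for the library without Xist) with the mean and SD of each group (n = 3). Irf7 and Gbp2 show KO libraries below WT libraries in both treatments, while Ifit2 and Stat2 overlap between the genotypes.

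The 9 GTPase genes are of the guanylate-binding protein, immunity-related GTPase and Mx families, whose proteins attack the membranes or capsids of microbes inside cells. GENCODE M21 lists Mx2 as a polymorphic pseudogene. All 9 were below 0 in both treatments, with medians of -0.94 in R300 and -0.64 in blank cells. Gbp2 had 29.8, 32.9 and 54.6 CPM in R300 KO libraries, against 75.7, 74.9 and 66.2 CPM in R300 WT libraries. It had 43.4, 60.7 and 54.1 CPM in blank KO libraries, against 90.9, 69.2 and 85.6 CPM in blank WT libraries, again without overlap. Gbp2 had the lowest p of the set over both treatments. Gbp7 had 12.9, 12.1 and 16.8 CPM in R300 KO libraries, against 20.6, 29.0 and 18.8 CPM in R300 WT libraries, also without overlap. Its blank libraries overlapped, the KO ones at 24.2, 19.4 and 17.9 CPM and the WT ones at 33.6, 18.5 and 35.2 CPM. The interferon-inducible Mx1 and Mx2 had large fold changes with large errors, -1.19 ± 0.72 for Mx1 and -1.17 ± 0.83 for Mx2 in R300 cells (log2, SE). Mx1 ran from 12.5 to 57.1 CPM in R300 KO libraries and from 31.8 to 115 CPM in R300 WT libraries, and the library without Xist was the highest in both groups.

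The sensors detect foreign or misplaced nucleic acids. Zbp1, which senses Z-form nucleic acids and can trigger necroptosis, had 14.7, 15.8 and 20.2 CPM in R300 KO libraries, against 39.2, 33.6 and 29.8 CPM in R300 WT libraries. Blank KO libraries had 15.9, 16.4 and 17.9 CPM, against 34.8, 14.5 and 37.9 CPM in blank WT libraries. All 6 KO libraries lay between 14.7 and 20.2 CPM, and each WT library but blank WT 2 was above that range. Eif2ak2, which encodes the kinase PKR, had 42.7, 47.4 and 55.1 CPM in R300 KO libraries, against 69.1, 77.9 and 57.6 CPM in R300 WT libraries. Eif2ak2 had 47.9, 47.6 and 52.1 CPM in blank KO libraries, against 68.0, 45.2 and 84.8 CPM in blank WT libraries. Its R300 groups did not overlap, and its blank groups overlapped through blank WT 2. Ifih1, the sensor MDA5, and Dhx58, its regulator LGP2, had log2 fold changes of -0.62 ± 0.27 and -0.90 ± 0.43 in R300 cells. Rigi, outside the count, was at -0.79 ± 0.34 in R300 and -0.60 ± 0.34 in blank cells (log2, SE).

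The OAS enzymes make oligoadenylates that activate RNase L, and their R300 fold changes had a median of -1.20. Oasl2 had 36.5, 41.6 and 75.5 CPM in R300 KO libraries, against 110, 145 and 96.6 CPM in R300 WT libraries. In blank KO libraries Oasl2 had 39.7, 46.0 and 64.4 CPM, against 109, 44.5 and 151 CPM in blank WT libraries. Blank WT 2 again lay among the KO libraries, while the R300 groups did not overlap. Oas2 had 23.8, 24.1 and 42.8 CPM in R300 KO libraries, against 64.6, 79.3 and 51.7 CPM in R300 WT libraries. In blank KO libraries it had 29.6, 32.6 and 41.8 CPM, against 67.1, 27.7 and 83.9 CPM in blank WT libraries. The R300 groups of Oas2 did not overlap either, and blank WT 2 was below all 3 blank KO libraries. Oas3 and Oas1a also had every R300 KO library below every R300 WT library, with log2 fold changes of -1.34 ± 0.55 and -0.67 ± 0.24. Oas1a shares 57.6% of its 50-base stretches with Oas1g, so its counts are uncertain.

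The IFIT proteins bind viral RNA ends and had, as a family, a median log2 fold change of -1.24 in R300 and -1.08 in blank cells, while the family's median in a library ran from -1.88 in R300 KO 1 to 1.67 in blank WT 3. Ifit1 had 9.48, 9.84 and 33.0 CPM in R300 KO libraries, against 37.5, 61.5 and 25.9 CPM in R300 WT libraries. It had 16.3, 40.8 and 36.8 CPM in blank KO libraries, against 45.2, 40.0 and 77.3 CPM in blank WT libraries. The 2 near-identical R300 KO libraries were the lowest, and R300 KO 3 was above R300 WT 3. Ifit2 had 8.24, 8.99 and 43.7 CPM in R300 KO libraries, against 41.4, 86.4 and 27.3 CPM in R300 WT libraries. It had 13.9, 29.6 and 51.3 CPM in blank KO libraries, against 57.8, 37.8 and 118 CPM in blank WT libraries. The groups of Ifit2 overlapped in both treatments, its log2 fold changes being -1.35 ± 0.73 and -1.17 ± 0.73. Ifit3 and Ifit3b, with log2 fold changes of -1.22 ± 0.76 and -1.13 ± 0.74 in R300 cells, share 51.2% and 44.5% of their 50-base stretches with each other, and their counts cannot be split with certainty.

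In the ISG15 system, a ubiquitin-like tag is attached by ligases such as HERC6 in the mouse and removed by USP18, which also dampens receptor signalling. Isg15 had every R300 KO library below every R300 WT library, at 20.4 ± 9.13 CPM in R300 KO and 39.2 ± 5.45 CPM in R300 WT cells (SD, n = 3 each). Usp18 and Herc6 had log2 fold changes of -1.10 ± 0.48 and -0.81 ± 0.38 in R300 cells. Dtx3l, the ubiquitin ligase that pairs with PARP9, had 22.8, 24.9 and 35.1 CPM in R300 KO libraries, against 42.1, 53.5 and 35.9 CPM in R300 WT libraries. In blank KO libraries it had 49.0, 48.0 and 40.9 CPM, against 72.9, 48.8 and 67.7 CPM in blank WT libraries. The R300 groups of Dtx3l touched without overlapping, at 35.1 CPM in R300 KO 3 and 35.9 CPM in R300 WT 3, and the blank groups overlapped through blank KO 1 and blank WT 2. Parp14, a mono-ADP-ribosyltransferase, had 119, 124 and 189 CPM in R300 KO libraries, against 242, 302 and 201 CPM in R300 WT libraries. It had 212, 250 and 197 CPM in blank KO libraries, against 324, 223 and 335 CPM in blank WT libraries. The groups of Parp14 overlapped in blank cells only. Dtx3l and Parp9 overlap on opposite strands over 8% and 9.4% of their exonic bases, and no strand setting of the counting is given.

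Of the other effectors, Bst2, the tetherin that holds budding virus at the cell surface, had the smallest errors in R300 cells. Bst2 had 43.1, 38.3 and 41.5 CPM in R300 KO libraries, against 64.6, 56.1 and 60.4 CPM in R300 WT libraries. Blank KO libraries had 37.7, 48.7 and 40.8 CPM of Bst2, against 59.3, 44.3 and 58.3 CPM in blank WT libraries. The R300 groups were far apart, with a log2 fold change of -0.56 ± 0.13, and the blank groups overlapped within pair 2. Slfn8, of the Schlafen family, had 9.24, 9.38 and 11.6 CPM in R300 KO libraries, against 16.6, 16.6 and 14.4 CPM in R300 WT libraries. It had 14.3, 14.6 and 14.4 CPM in blank KO libraries, against 21.6, 14.6 and 21.9 CPM in blank WT libraries. Its groups did not overlap in either treatment, although blank KO 2 and blank WT 2 were equal to 3 digits. Slfn8 shares 14.6% of its 50-base stretches with other genes.

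Lgals3bp, a secreted glycoprotein that binds galectins, was the highest of the set per length, at a mean of 111 CPM per kilobase of exon, followed by Bst2 at 54.7 and Slfn5 at 46.3. Lgals3bp had 201, 205 and 298 CPM in R300 KO libraries, against 425, 410 and 390 CPM in R300 WT libraries. It had 213, 281 and 293 CPM in blank KO libraries, against 398, 271 and 413 CPM in blank WT libraries. The R300 groups were separate and the blank groups overlapped through blank WT 2. Slfn5 had 132, 144 and 341 CPM in R300 KO libraries, against 288, 506 and 232 CPM in R300 WT libraries. In blank KO libraries it had 174, 251 and 361 CPM, against 311, 191 and 582 CPM in blank WT libraries. Slfn5 overlapped in both treatments. Ifi44 had the largest fitted fold change of the set in R300 cells, -1.98 ± 0.47, but the lowest level, with 4, 7 and 12 counts in R300 KO libraries, against 29, 42 and 27 counts in R300 WT libraries. Rsad2, the antiviral enzyme viperin, and Cmpk2, the nucleotide kinase beside it on chromosome 12, had log2 fold changes of -1.31 ± 0.65 and -1.28 ± 0.64 in R300 cells. The smallest R300 fold change was that of Ifi35, -0.31 ± 0.24.

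Counted without a model, every R300 KO library was below every R300 WT library for 18 genes (40.9%), against 3.87% of all genes. In blank cells this held for 4 genes (9.09%), against 1.96%, which were Irf7, Gbp2, Gbp3 and Slfn8. Irf7, Gbp2 and Slfn8 met it in both treatments, 3 genes (6.82%) against 0.411% of all genes. With 3 libraries a group, the smallest two-sided p of an exact permutation test on 1 gene is 0.1. That value takes the libraries as independent, which is in doubt in R300 cells, where each genotype holds near copies.

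With the 2 genotype contrasts averaged, 6 libraries against 6, 44 of 44 genes were below 0 (50.8% of all genes), with a median log2 fold change of -0.76 (0.591-fold), against 0.00 over all genes. None of the set was called by edgeR, where 0.00604% of all genes, 1 of 16546, was called. That gene was Lyz2 (log2 fold change -0.89 ± 0.08, adjusted p = 0.005), which is not an interferon-stimulated gene of the set. At an unadjusted p under 0.05, 35 genes of the set (79.5%) were lower in KO cells, against 1.8% of all genes, and the lowest adjusted p was 0.319, for Gbp2 (-0.76 ± 0.15). The other low values were Bst2 (-0.45 ± 0.09, adjusted p = 0.366), Slfn8 (-0.54 ± 0.11, adjusted p = 0.405) and Irf7 (-1.03 ± 0.22, adjusted p = 0.459). DESeq2 called 8 genes of the set in this contrast, against 0.242% of all genes called lower. These were Gbp2 (adjusted p = 0.00295), Irf7 (adjusted p = 0.00585), Slfn8, Bst2, Zbp1, Lgals3bp, Ifi44 and Oasl2 (adjusted p = 0.043), all lower in KO cells. With a term for the libraries without Xist, edgeR called 2 genes of the set, Irf7 (-1.03 ± 0.16) and Ifit3 (-1.27 ± 0.19), both at adjusted p = 0.0444, against 0.127% of all genes called lower. This term does not take in the different Xist levels of the other libraries.

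**Figure D4:**
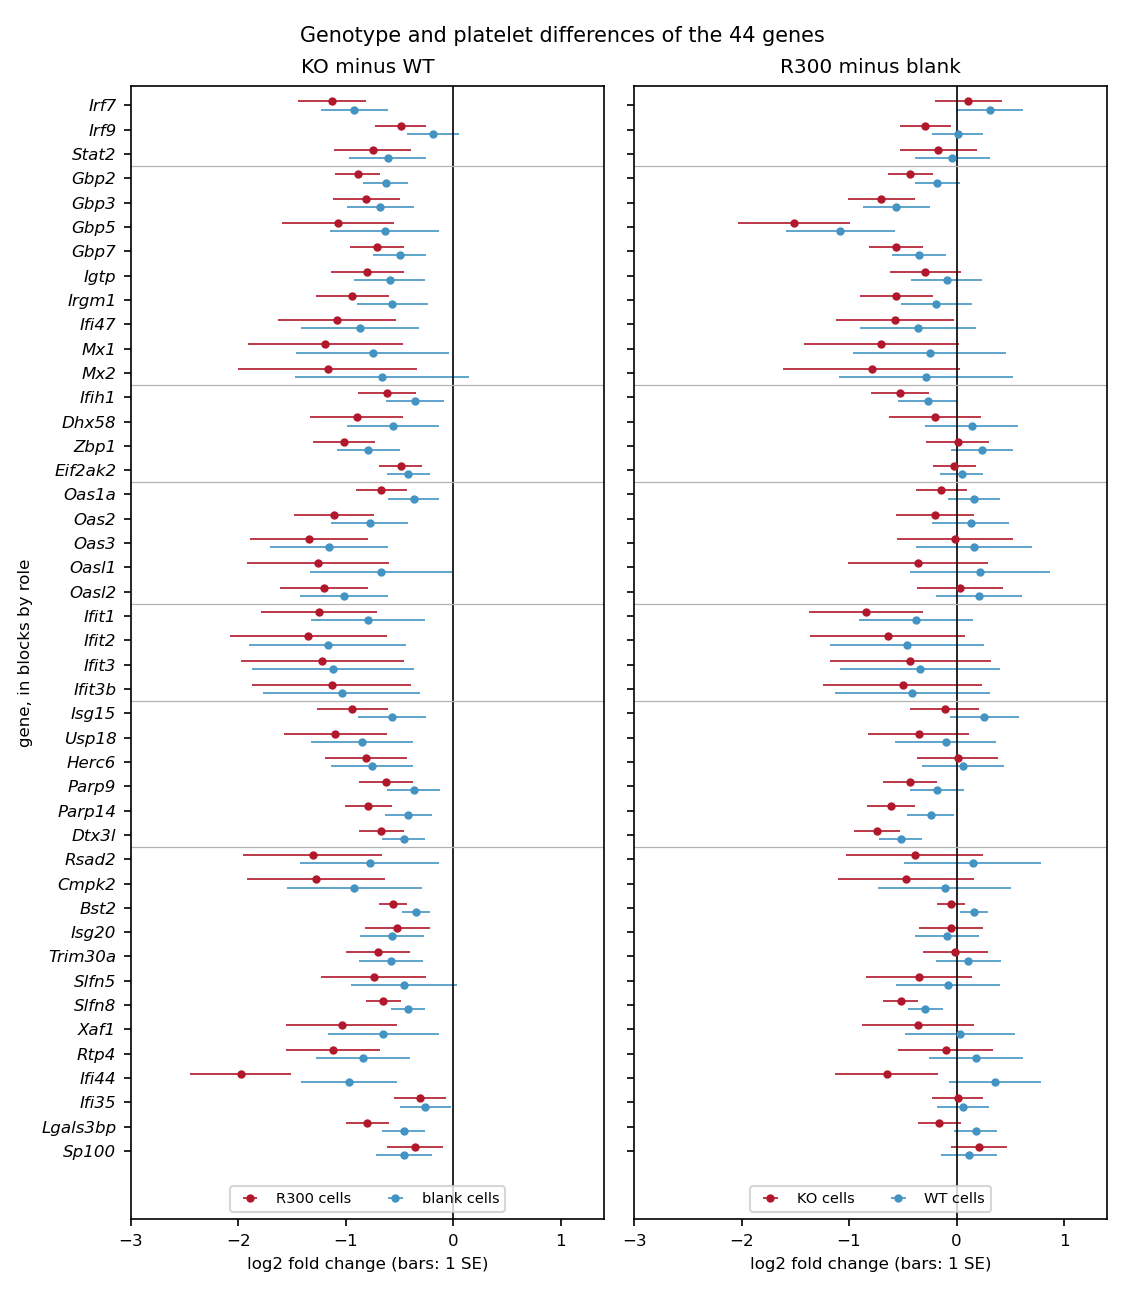
Fitted log2 fold changes of the 44 genes with 1 SE, for KO over WT in R300 and in blank cells (left) and for R300 over blank in KO and in WT cells (right), with genes in blocks by role. On the left all points lie below 0, with medians of -0.92 and -0.64, and on the right they spread around or just below it, with medians of -0.36 and -0.06.

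The second question is what coated platelets change in each genotype. In KO cells 38 of 44 genes were lower with R300 than in blank cells (50.7% of all genes), with a median log2 fold change of -0.36, against 0.00. In WT cells 23 of 44 were lower (50.9% of all genes), with a median of -0.06. None of the set was called by edgeR in KO cells, where 0.834% of all genes were called, or in WT cells, where 0.623% were called. At an unadjusted p under 0.05, 5 genes were lower in R300 KO than in blank KO cells (11.4%, against 3.93% of all genes), and 1 gene was lower in R300 WT than in blank WT cells (2.27%, against 3.74%). That 1 gene was Dtx3l, at -0.52 ± 0.20 in WT cells (adjusted p = 0.462 in edgeR). In KO cells Dtx3l was at -0.74 ± 0.21 (edgeR, adjusted p = 0.181), and DESeq2 called it at adjusted p = 0.0431, the 1 gene of the set (2.27%) beside 0.78% of all genes called lower. The other 4 genes of KO cells were Slfn8, Gbp5, Parp14 and Gbp3.

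By family, the signs of the platelet values were not all alike. All 9 GTPases were negative in both genotypes, with medians of -0.57 in KO and -0.28 in WT cells. Gbp5, which promotes inflammasome assembly, was the farthest from 0. It had 5.55, 4.57 and 14.6 CPM in R300 KO libraries, against 11.9, 41.2 and 17.2 CPM in blank KO libraries. In R300 WT libraries it had 15.4, 24.4 and 12.2 CPM, against 30.2, 46.4 and 33.2 CPM in blank WT libraries. In WT cells the groups did not overlap, and in KO cells R300 KO 3 was above blank KO 1. Every R300 WT library was below every blank WT library for 2 genes of the set (4.55%), against 6.09% of all genes. In KO cells the same held for 4 genes (9.09%), against 5.68%. The log2 fold changes of Gbp5 were -1.51 ± 0.52 in KO cells and -1.08 ± 0.51 in WT cells (edgeR, adjusted p = 0.338 and 0.595). All 4 IFIT genes were also negative in both genotypes, with medians of -0.57 in KO and -0.39 in WT cells. Their standard errors were larger, 0.53 to 0.75 in KO and 0.53 to 0.74 in WT cells. The 5 OAS genes were all positive in WT cells, from 0.13 to 0.22, and 4 of 5 were negative in KO cells. Standard errors of the WT values, 0.24 to 0.65, exceeded the values themselves. Over the alternatives each of the 5 changed sign in WT cells, Oas3 running from -0.26 to 0.73. Of all genes, 50.7% were negative in KO and 50.9% in WT cells, so the signs by family are description only. Between the libraries without Xist, 1 to each group, the platelet ratio had a median (log2) of 0.04 in KO cells, with R300 lower for 16 of 44 genes, against 50.8% of all genes. In WT cells its median was -0.11, with R300 lower for 37 of 44 genes, against 48.9% of all genes, so that KO cells lay nearer to 0 and WT cells farther from it than in the fit of all libraries.

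Whether the platelet response differs between genotypes was tested by the interaction term. The difference of the responses, KO minus WT, was below 0 for 42 of 44 genes, against 51.5% of all genes, with a median of -0.25. None of the set had an unadjusted p under 0.05, against 0.254% of all genes that did and were lower, and 0% of all genes were called by edgeR. Without blank KO 2 and blank WT 2, the pair that stood apart, this median was 0.04 and 14 of 44 genes were below 0. No difference in the platelet response of the set was thus detectable with 3 libraries a group.

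Of the other genes of the pathway, the ligands were barely counted. Among 21 interferon genes looked for, 6 had a row. Ifnb1 had 0 to 5 counts per library, Ifng 0 to 7 and Ifna16 0 in all 12 libraries, and only Ifnk, at 1 to 34 counts, passed the filter. The receptors were expressed at like levels in both genotypes. Ifnar1 averaged 360 ± 16.5 CPM in R300 KO and 380 ± 17.3 CPM in R300 WT cells, and 353 ± 20.5 CPM in blank KO and 361 ± 27.1 CPM in blank WT cells (SD, n = 3 each). Log2 fold changes of Ifnar1, Ifnar2, Ifngr1 and Ifngr2, KO over WT, lay between -0.15 and 0.06 with standard errors of 0.09 to 0.16. None of the 9 receptors and Janus kinases had an unadjusted p under 0.05 in a genotype comparison, nor did any of 14 sensors and adaptors upstream of interferon or of 7 inhibitors of its signalling. Of all genes, only 1.3% were lower and 0.659% higher at that level in R300 cells, and 0.695% lower and 0.399% higher in blank cells, so that a count of 0 in lists this short lies near the background.

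A list of 50 further interferon-stimulated genes had 48 of 50 below 0 in R300 cells, against 51.4% of all genes, and 50 of 50 in blank cells, against 49.3%, with medians of -0.64 and -0.38, and none was called. At an unadjusted p under 0.05, 24 of the 50 were lower in R300 KO cells, against 1.3% of all genes, and 8 in blank KO cells, against 0.695%. Like the set, the list was chosen with earlier results of these data known, so it is not an independent check. Its genes Oas1g, Irgm2 and Trim30d also share 57.6%, 11.8% and 5.98% of the 50-base stretches of Oas1a, Igtp and Trim30a of the set.

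In bulk samples, fewer cells of a type and less RNA per cell cannot be told apart. Summed markers of plasmacytoid dendritic cells, known as strong producers of type I interferon, were 41.2 to 49.4 CPM in R300 KO and 38.4 to 47.9 CPM in R300 WT libraries, and 41.1 to 58.7 CPM in blank KO and 36.3 to 64.1 CPM in blank WT libraries. Their defining marker Siglech did not exceed 0.757 CPM in any library, while Tcf4 made up most of each sum, at 30.7 to 51.9 CPM. Summed T and NK cell markers, from cells that make interferon gamma, were 3.15 to 5.86 CPM in R300 KO and 5.02 to 6.06 CPM in R300 WT libraries, and 1.99 to 7 CPM in blank KO and 1.77 to 9.43 CPM in blank WT libraries. Summed markers of recruited monocytes were higher in KO than in WT libraries after R300, at 431 to 603 CPM against 383 to 393 CPM, and overlapped in blank cells, at 490 to 724 CPM in KO and 400 to 884 CPM in WT. Summed B cell markers did likewise, at 113 to 133 CPM in R300 KO and 86.8 to 104 CPM in R300 WT libraries, and 145 to 281 CPM in blank KO and 87.8 to 307 CPM in blank WT libraries. The 9 markers of eosinophils and mast cells overlapped in sum, at 37.1 to 83.3 CPM in R300 KO and 41.8 to 48.7 CPM in R300 WT libraries, and 24.7 to 59.7 CPM in blank KO and 14.1 to 42.9 CPM in blank WT libraries. The mast cell protease genes Cpa3 and Tpsb2 among them were higher in every KO than in every WT library of the same treatment. This held for 4.03% of all genes in R300 cells and 1.74% in blank cells. Other markers of the list did not separate alike. Mcpt4 overlapped in R300 cells and Kit in both treatments. Gata2 averaged 8.52 CPM in R300 KO and 9.35 CPM in R300 WT cells, and 2.1 CPM in blank KO and 2.19 CPM in blank WT cells. Cpa3 was at 4.67 to 7.38 CPM in R300 KO and 1.9 to 3.36 CPM in R300 WT libraries, and 2.06 to 4.01 CPM in blank KO and 0.599 to 1.59 CPM in blank WT libraries. The 9 macrophage markers summed to 12900 to 15000 CPM in R300 KO and 18800 to 19500 CPM in R300 WT libraries, a sum that Lyz2 dominates, and to 11600 to 12600 CPM in blank KO and 17700 to 19600 CPM in blank WT libraries. The 7 markers of resident peritoneal macrophages differed between libraries within each group. They summed to 134, 140 and 40.8 CPM in R300 KO libraries, against 93.5, 50.7 and 93.0 CPM in R300 WT libraries. In blank KO libraries they summed to 126, 78.3 and 41.5 CPM, against 87.3, 70.8 and 42.0 CPM in blank WT libraries. The 4 libraries without Xist had the 4 lowest sums, 40.8 and 50.7 CPM in R300 KO and R300 WT and 41.5 and 42.0 CPM in blank KO and blank WT. The part of these cell types in the genotype difference of the interferon-stimulated genes was not tested.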

How the data were processed

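The authors deposited raw counts per gene symbol for 12 libraries, in a table of 35050 rows whose columns were identical to the 12 sample files. Reads were aligned to mm10 and counted by the authors with a set of tools that, per the submitters' processing notes, held featureCounts 2.0.3, HISAT2 2, fastp 0.23.4, DESeq2 1.42.0 and FastQC 0.12.1; the strand setting is not given in the sources used here. Rows without a symbol, 102 in number, held 0.0232% to 0.0328% of the counts and were left out.

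Counts were fitted with edgeR 4.0.16 in R 4.3.3 (TMM, filterByExpr by group, robust quasi-likelihood, 1 mean per group over all 12 libraries), and p was adjusted by the Benjamini-Hochberg method over 16546 genes. Genes with an adjusted p under 0.05 count as called. Across genes, the common biological coefficient of variation came to 0.267. CPM values are TMM-normalised; a level per kilobase divides by the exonic bases of GENCODE M21 on GRCm38, the assembly that mm10 names. Promoter windows come from RefSeq. Shares of 50-base stretches were counted against all GENCODE transcripts.

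Same-numbered libraries of blank KO and blank WT deviated together from their group means (correlations 0.59, 0.61 and 0.65), so their numbers were taken as pairs. Between other groups same-numbered correlations ran from -0.72 to 0.67, and the same number was not the best match throughout. R300 KO 3 matched blank KO 3 at 0.67 and blank WT 3 at 0.65, and all 3 lack Xist. The correlation of blank pair 3 is thus not particular to the blank groups. Alternatives were the DESeq2 Wald test, other scalings, no filter, a fit of the compared groups alone, a replicate block, a term for or the omission of the libraries without Xist, 1 library of each near-identical pair, and each library left out.

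The genes and lists were chosen with earlier results of these data known. Values in each library are given for Irf7, Irf9 and Stat2, the 2 genes of each role group with the lowest p for the averaged genotype contrast, the 2 with the lowest p in each platelet comparison and the 3 with the highest mean CPM, 18 genes in all; other genes are named for extremes, uncertain counting or calls under an alternative. The result of 1 gene of the pathway is not reported here.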

Additional observations from a re-analysis of the deposited data

How the results depend on the processing

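The main fit called none of the 44 genes in any comparison, so an alternative could add calls but had none to reverse. The genotype difference in R300 cells was below 0 for 44 of 44 genes under all 22 alternatives, with medians from -1.29 (without R300 KO 3) to -0.61 (without R300 WT 2), and in blank cells for 41 to 44 genes under 23 alternatives, with medians from -0.90 to -0.33 (without blank WT 3). No gene of the set was called in either. For the averaged genotype contrast, where 0 were called, DESeq2 called 8, a term for the libraries without Xist 2, and the fits that leave out 1 library 0 to 1 (Zbp1, adjusted p = 0.0119, without blank WT 2). Leaving out blank KO 2 and blank WT 2 together, chosen after seeing the data, gave 2 (Zbp1 and Bst2, adjusted p = 0.0214 each). For R300 against blank in KO cells DESeq2 called 1 gene (Dtx3l), against 0 in edgeR. The cause of these differences between tools and settings was not tested.

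Counts at an unadjusted p under 0.05 depended on single libraries. The 25 genes lower in R300 KO cells became 10, 11 and 12 without R300 KO 1, R300 KO 2 and R300 WT 2 (0.673%, 0.809% and 1.38% of all genes), and 41 without R300 KO 3 (3.18% of all genes). With 1 library of each near-identical pair the count was 17 (0.634% of all genes), and with a term for the libraries without Xist 41 (3.1% of all genes). The 8 genes lower in blank KO cells became 1, 2 and 4 without blank WT 3, blank WT 1 and blank KO 1 (0.611%, 0.693% and 0.885% of all genes), 14 without R300 KO 3 (0.709%), and 25 without blank WT 2 (1.05%). With the same-numbered pairs as a replicate block in the 6 blank libraries, chosen after seeing the data, 21 genes were lower at that level (47.7%, against 2.16% of all genes) and 0 were called. The replicate block over all 12 libraries left the calls at 0 in all 6 comparisons, with medians of -1.01 in R300 and -0.64 in blank cells. The platelet medians ran from -0.71 (without R300 KO 3) to -0.09 (without R300 KO 1) in KO cells and from -0.34 (without R300 WT 2) to 0.35 (without blank WT 3) in WT cells, so their sign in WT cells is set by single libraries. Depth limits mainly Ifi44 (mean count 19.7), the least counted of the set.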
